A study of Arabidopsis thaliana with 9 samples.

Results

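The transcripts described here are 58 loci of the Arabidopsis thaliana root whose level exceeded the control in the potent line and was below it in the arf7 line. They were taken from a table of 31124 loci, of which 13513 had at least 5 FPKM (a fragment count scaled for transcript length and for the size of the library) in the highest of the 3 genotypes. A locus was kept if it was among these and if log2((potent + 1)/(control + 1)) was at least 0.8 and log2((arf7 + 1)/(control + 1)) at most -0.8, with both ratios taken on FPKM. RNA came from the oscillation zone, a stretch behind the root tip where auxin response cycles and where the sites of future lateral roots are set. The control plants were Col0 with the wild-type genotype, collected at the minimum of the oscillation. The potent plants carry an altered IAA18, a repressor of auxin response, and the arf7 plants an altered ARF7, an activator of auxin-responsive transcription; the labels give no allele for either. Expression of DR5::Luciferase, a reporter of auxin response, was followed in the plants, and zones were cut by hand at 7 dpi. Each group had 3 samples, but the deposited table gives 1 value per locus and genotype, so the spread between samples is unknown and no test was run. The labels give no phase of the oscillation for the mutant plants, so genotype and phase cannot be told apart.

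Because these values chose the loci, the differences below are a description. Both ratios share the control samples, so a control value that is off would move them together in the same direction, and the potent and arf7 values are therefore also set against each other. In zones that hold many cell types, fewer cells of a type and less RNA per cell cannot be told apart.

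The largest group with a shared described role among the 58 encodes the machinery of mitosis. Plant cells enter mitosis when B-type cyclins activate cyclin-dependent kinases, among them the plant-specific B-type kinases; kinases of the Aurora family and the spindle checkpoint then govern chromosome separation, the anaphase-promoting complex marks cyclins for destruction, and a new wall is built at the cell plate. Genes for these proteins are transcribed together in late G2 and M phase, in large part through MYB3R factors that recognise the mitosis-specific activator (MSA) element, whose core is the pentamer AACGG. In the root, divisions take place in the meristem of the tip and in the founder cells that give rise to lateral roots.

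All 58 loci had their highest value in potent, which the rule requires, so each met the level of 5 FPKM through potent. Their median was 18.1 FPKM in potent, 5.39 in the control and 0.936 in arf7, while the 13513 loci at this level had medians of 16.8, 16.3 and 16.4 FPKM. On the log2(FPKM + 1) scale the median difference from the control was 1.33 in potent and -1.37 in arf7, against 0.01 and -0.01 over the 13513 loci. For 31 of the 58 the larger distance from the control was that of potent. The control itself was low for many of them, with 28 below 5 FPKM. In arf7, 17 of the 58 are listed at 0 (29.3%, against 2.21% of the 13513 loci at 0 in some genotype). Among them are 13 protein-coding genes with control values from 0.880 to 5.48 FPKM. The rule favours low arf7 values and allows a 0 only there, so nothing is read from the difference in these shares. The depth of the libraries is unknown and a 0 can be a failed estimate, so no fold is given for loci listed at 0 in arf7.

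**Figure D1:**
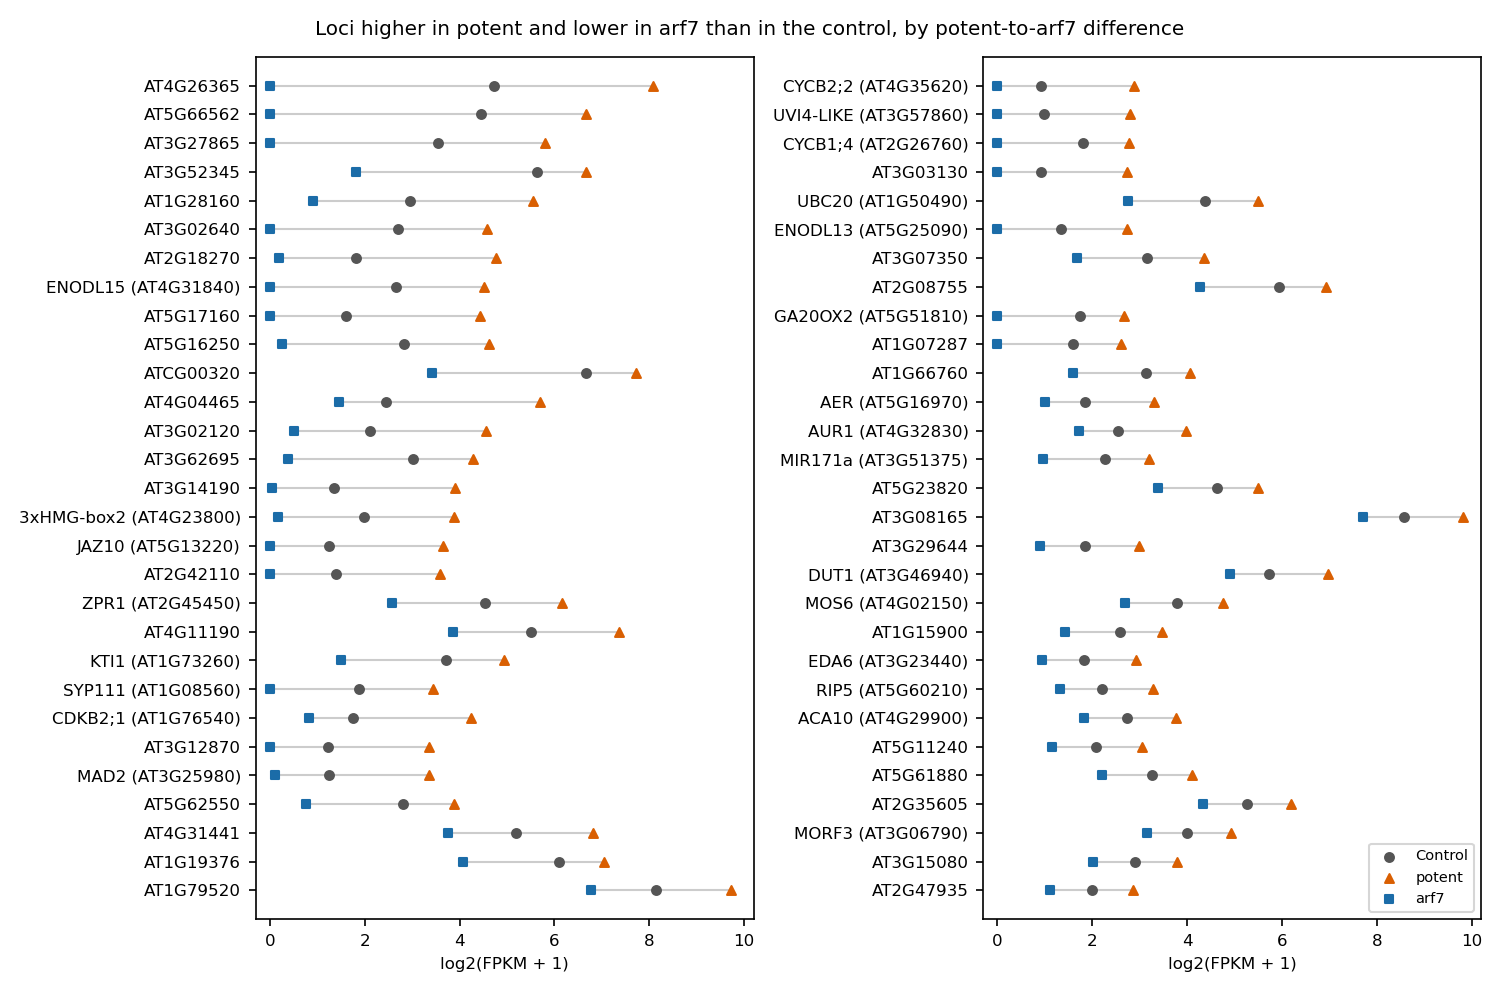
FPKM of the 58 loci in the control (circles), potent (triangles) and arf7 (squares) on a log2(FPKM + 1) axis, 1 deposited value per genotype and no error bars, ordered by the difference between potent and arf7. Potent is the highest value in every row, which the rule requires, and 17 rows have arf7 at 0.

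Of the 13513 loci, 25% met the condition in potent and 19.1% the condition in arf7, while 0.429% met both, which are the 58. The authors' deposited table, which holds the loci they called different from the control, lists 3 of the 58 as higher in potent (background 4.47% of the 13513 loci) and 6 as lower in arf7 (background 3.70%). Its contrasts are those used to choose the loci, so nothing is read from these counts. It does not list 50 of the 58 in either mutant. AT5G17160, an aspartic and glutamic acid-rich protein of no described role, is the sole locus that the authors' deposited table lists in opposite directions. It had 20.5 FPKM in potent, 2.04 in the control and is listed at 0 in arf7. In the authors' deposited table its log2 fold change in potent is 3.32, with q = 0.00145 in both mutants, and the entry joins it with the neighbouring gene AT5G17150, so reads of the pair may be mixed.

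**Figure D2:**
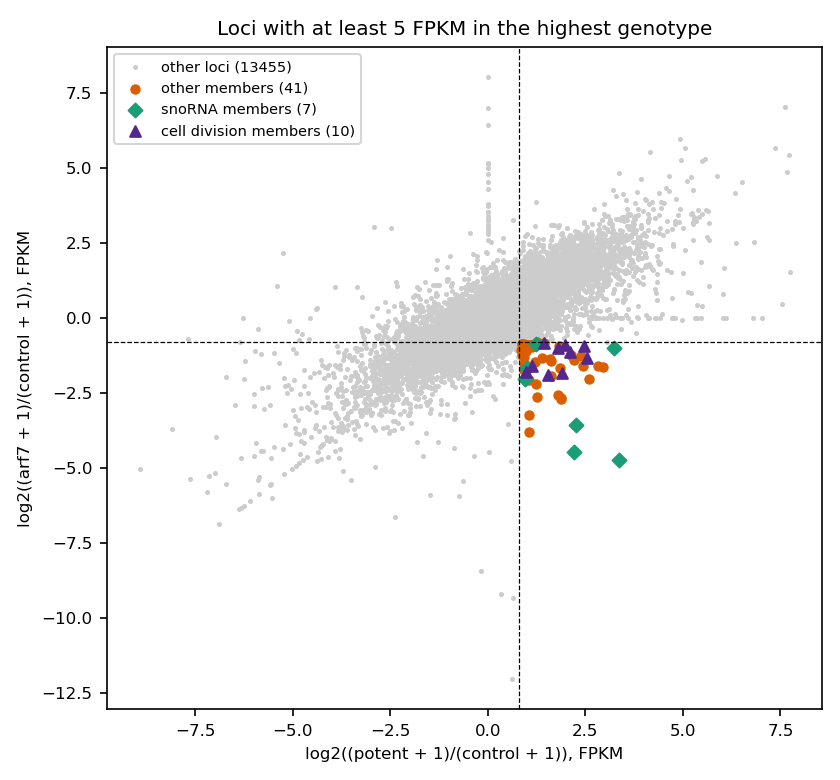
Difference from the control in potent (horizontal axis) and in arf7 (vertical axis), both as log2 ratios of FPKM + 1, for loci with at least 5 FPKM in the highest genotype; dashed lines mark 0.8 and -0.8. The 58 loci fill the lower right corner, with 10 cell division genes as triangles and 7 small nucleolar RNAs as diamonds.

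The cyclins and kinases that drive entry into mitosis come first. CYCB1;4 (AT2G26760), a B-type cyclin, had 5.85 FPKM in potent, 2.48 in the control and is listed at 0 in arf7, where the authors' deposited table has it as lower (q = 0.00145). CYCB2;2 (AT4G35620), another B-type cyclin, had 6.38 FPKM in potent, 0.880 in the control and is listed at 0 in arf7. CDKB2;1 (AT1G76540), a B-type kinase of the G2 to M transition, had 17.8 FPKM in potent, 2.39 in the control and 0.783 in arf7. These are 7.45-fold above the control in potent and 3.05-fold below it in arf7. The authors' deposited table lists CDKB2;1 as higher in potent with a log2 fold change of 2.90 (q = 0.00382) and does not list it in arf7. AUR1 (AT4G32830), an Aurora kinase that sits on the spindle and the cell plate, had 14.7 FPKM in potent, 4.78 in the control and 2.27 in arf7. Its difference from the control in arf7, -0.82 on the log2 scale, was among the smallest of the set.

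Members that time anaphase had the same order, which the rule requires. MAD2 (AT3G25980), a component of the spindle checkpoint, had 9.22 FPKM in potent, 1.37 in the control and 0.0793 in arf7, so that potent was 116-fold above arf7. AT3G14190, named PATRONUS 1 in the reference and known to protect the cohesion of sister chromatids, had 13.9 FPKM in potent, 1.56 in the control and 0.0285 in arf7. UVI4-LIKE (AT3G57860, also OSD1), an inhibitor of the anaphase-promoting complex, had 5.92 FPKM in potent, 0.987 in the control and is listed at 0 in arf7. UBC20 (AT1G50490), a ubiquitin-conjugating enzyme of the E2-C type that works with that complex, was the most abundant of the group, with 44.1 FPKM in potent, 19.6 in the control and 5.77 in arf7.

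The remaining mitotic genes act on chromosomes and at the cell plate. 3xHMG-box2 (AT4G23800), a protein that binds mitotic chromosomes, had 13.7 FPKM in potent, 2.94 in the control and 0.121 in arf7. SYP111 (AT1G08560), the syntaxin KNOLLE that fuses vesicles at the cell plate, had 9.79 FPKM in potent, 2.69 in the control and is listed at 0 in arf7. These 10 genes, picked by their described roles after their values were seen, spanned 5.85 to 44.1 FPKM in potent, 0.880 to 19.6 in the control and 0 to 5.77 in arf7, with 4 at 0 in arf7. Their folds of potent over the control ran from 2.25 for UBC20 to 8.92 for AT3G14190. Apart from CYCB1;4 and CDKB2;1, the authors' deposited table lists none of the 10 in either mutant.

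Close relatives of these genes did not all share the order. UBC19 (AT3G20060), the other E2-C enzyme, had 130.9 FPKM in potent, 93.4 in the control and 84.1 in arf7, less spread than UBC20. AUR2 (AT2G25880) had 11.2 FPKM in potent, 5.11 in the control and 8.10 in arf7, so that both mutants were above the control. UVI4 (AT2G42260), which like UVI4-LIKE restrains the anaphase-promoting complex, had 0.193 FPKM in potent, 2.66 in the control and 0.149 in arf7. 3xHMG-box1 (AT4G11080) kept the order of 3xHMG-box2 at a lower level, with 2.05, 1.03 and 0.301 FPKM in potent, control and arf7.

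A list of 31 cell cycle genes placed the members within the pathway. It includes 5 of the 58, namely CYCB1;4, CYCB2;2, CDKB2;1, AUR1 and SYP111; CYCB2;1 and CYCA2;4 are not analysed here. Of the 29 genes with values, 21 exceeded the control in potent and 25 were under it in arf7, against 49.5% and 48.8% of the 22315 loci above 0. The 5 members count in the 21, in the 25 and in the medians below by the rule that chose them. The median log2 ratio of the 29 was 0.99 in potent and -0.54 in arf7, where the median over the 22315 loci was 0.00 in each. That arf7 median is the value of PLE, which had 0.455 FPKM in the control and is listed at 0 in both mutants. Several others under the control in arf7, such as CYCB1;1, CYCA1;1 and CDC20.2, had controls below 1 FPKM, which left little room for a lower value. In the authors' deposited table, CDKB2;1 is the 1 gene of the 29 called higher in potent, and CYCA3;2 the 1 called lower. None is called higher in arf7, and 3 are called lower there, namely CYCB1;4, CYCA3;2 and CDC20.1. CDKB2;1 and CYCB1;4 are members. Among loci with at least 5 FPKM, a level that 16 of the 29 reach, 4.47% are called higher in potent and 3.70% lower in arf7. Nothing is read from counts this small.

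Several mitotic genes of that list missed the set through their low level or a low control. CYCB1;3 (AT3G11520), a B-type cyclin, had 13.1 FPKM in potent, 0.103 in the control and is listed at 0 in arf7, so its control left no room for a lower value. CYCB2;3 (AT1G20610) had 4.75 FPKM in potent, 1.01 in the control and 0.0791 in arf7, just under the level of 5 FPKM. CDKB1;2 (AT2G38620) had 4.01 FPKM in potent, 1.36 in the control and is listed at 0 in arf7. CDC20.1 (AT4G33270), an activator of the anaphase-promoting complex, had 3.39 FPKM in potent, 1.06 in the control and is listed at 0 in arf7, where the authors' deposited table has it as lower (q = 0.00145). All 9 B-type cyclin genes with values were under the control in arf7, and 7 of the 9 exceeded it in potent, the exceptions being CYCB1;5 and CYCB3;1, both below 1 FPKM throughout. Apart from CYCB1;4 and CYCB2;3, the control level of these cyclins was itself below 1 FPKM, which left little room for a lower arf7 value. CYCB1;4 and CYCB2;2 also count here by the rule that chose them.

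Genes of other phases on the list varied. PCNA1 (AT1G07370), the sliding clamp of DNA replication, had the order of the set, with 25.4 FPKM in potent, 19.6 in the control and 8.55 in arf7, and missed it through its small difference in potent, 0.35 on the log2 scale. The replicative helicase subunit MCM2 (AT1G44900) had 3.29, 3.498 and 3.25 FPKM in potent, control and arf7, and the D-type cyclin CYCD3;1 (AT4G34160), which acts in G1, had 46.5, 48.3 and 44.0 FPKM. CYCA3;2 (AT1G47210), an A-type cyclin, had 1.80 FPKM in potent, 23.5 in the control and 2.14 in arf7, and the authors' deposited table lists it as lower in both mutants (q = 0.00587 and 0.00382). Of the mitotic genes, HINKEL (AT1G18370), a kinesin of the cell plate, differed from SYP111 in order, with 6.31 FPKM in potent, 4.27 in the control and 8.14 in arf7. The B-type kinase CDKB1;1 (AT3G54180) had 11.0 FPKM in potent, 13.2 in the control and 4.74 in arf7, so that both mutants were below the control. PLE (AT5G51600), at 0.455 FPKM in the control, is listed at 0 in both mutants.

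**Figure D3:**
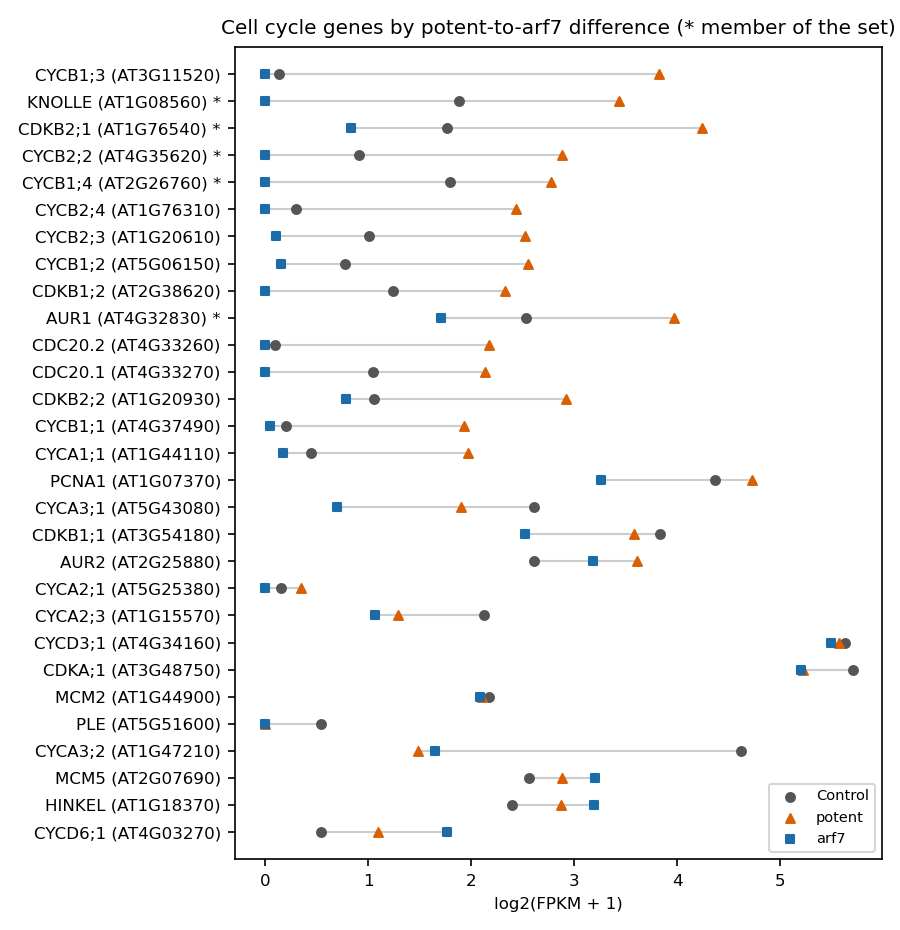
FPKM of 29 cell cycle genes in the control (circles), potent (triangles) and arf7 (squares) on a log2(FPKM + 1) axis, 1 deposited value per genotype, ordered by the difference between potent and arf7; asterisks mark the 5 genes of the set. The upper rows hold B-type cyclins, B-type kinases other than CDKB1;1, CDC20 genes and KNOLLE (SYP111), with arf7 at or near 0. The lower rows hold CYCD3;1, CDKA;1 and MCM genes, whose values lie closer together or in another order.

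The promoters of the members were then read for the pentamer AACGG, on both strands, in a window from 250 bases before to 50 bases after each annotated start in RefSeq's TAIR10.1 assembly. This motif was chosen after the mitotic genes had been seen. It occurred in 23 of the 46 protein-coding members (50%), in 25.8% of the 12794 coding loci with at least 5 FPKM and in 24.7% of all 27561 coding promoters of that length. At least 2 matches stood in 11 of the 46 (23.9%), against 5.32% of the 12794. Of the 16 coding loci with the opposite pattern, lower in potent and higher in arf7, 4 had a match (25%). On the list of 31 cell cycle genes, which includes some members, 18 had a match (58.1%) and 13 at least 2 (41.9%). The share was thus no higher in the set than on that list. Among 419 coding loci described by words of cell division, DNA and chromatin, 31.7% had a match and 9.55% at least 2. The difference between the groups was not tested. Shown here are 4 windows of 210 bases, from 180 before to 30 after the start, 5′ to 3′ on the strand of the gene, for 3 mitotic genes with matches and for AT5G17160; capitals mark AACGG or its complement CCGTT.
CYCB2;2, chr4:16901416-16901625 (+): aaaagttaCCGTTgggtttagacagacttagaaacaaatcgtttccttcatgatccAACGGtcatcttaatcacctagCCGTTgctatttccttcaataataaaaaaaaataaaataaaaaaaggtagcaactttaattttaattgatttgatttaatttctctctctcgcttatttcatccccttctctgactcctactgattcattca
MAD2, chr3:9502876-9503085 (+): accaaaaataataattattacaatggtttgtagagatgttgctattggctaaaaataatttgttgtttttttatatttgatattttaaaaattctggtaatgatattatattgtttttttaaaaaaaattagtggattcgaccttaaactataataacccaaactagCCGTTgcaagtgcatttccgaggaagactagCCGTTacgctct
SYP111, chr1:2710971-2711180 (-): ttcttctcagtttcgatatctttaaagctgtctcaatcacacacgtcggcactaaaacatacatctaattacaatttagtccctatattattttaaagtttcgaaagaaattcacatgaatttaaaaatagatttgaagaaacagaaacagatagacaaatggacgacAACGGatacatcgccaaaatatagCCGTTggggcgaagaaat
AT5G17160, chr5:5642594-5642803 (-): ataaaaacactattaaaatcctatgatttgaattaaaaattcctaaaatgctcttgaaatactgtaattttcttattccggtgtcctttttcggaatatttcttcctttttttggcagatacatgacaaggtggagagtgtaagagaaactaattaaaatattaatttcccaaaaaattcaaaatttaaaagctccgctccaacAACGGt

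CYCB2;2 has 3 matches in its window, MAD2 has 2, SYP111 has 3 of which 2 fall within the printed bases, and AT5G17160 has 1. Of the 10 mitotic genes 9 hold the pentamer, and CDKB2;1 is the one that does not in this window. It is also present in 14 of the 36 other coding members (38.9%). Among these are AT3G02640, AT5G16250 and AT3G02120, with 3 matches each, and ENODL15 with 3 and ENODL13 with 4. The 42 matches lay close to the start, with 33 (78.6%) beginning no more than 100 bases before it, against 56.6% of the 4154 matches in the 12794 promoters.

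**Figure D4:**
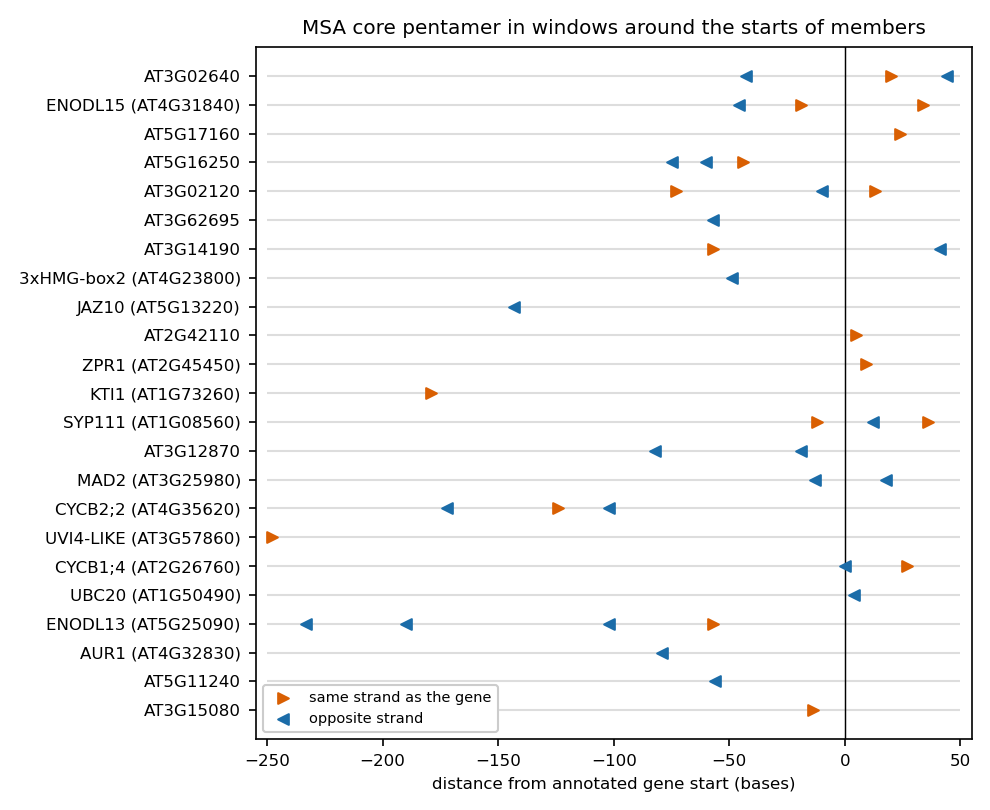
Position of the MSA core pentamer in the promoters of the 23 protein-coding members that hold it, as distance in bases from the annotated start, with arrows to the right for the gene's strand and to the left for the other; rows are ordered by the difference between potent and arf7. Most of the 42 matches lie between -100 and the end of the window.

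Auxin response elements were searched in the same windows on both strands. TGTCTC, the element bound by auxin response factors, occurred in 7 of the 46 coding members (15.2%) and in 13.3% of the 12794 promoters. TGTCGG, a variant with higher affinity, occurred in 2 of the 46 (4.35%) and in 5.83% of the 12794. Their shared form TGTCNN, which includes both, was present in 80.4% of members and 81.2% of the 12794, and the G-box CACGTG in 13.0% and 8.70%. A match is a description of the letters, not of binding.

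Several members that rank high carry no described role, and others encode proteins of the cell surface. AT3G02640, an uncharacterised protein, had 23.0 FPKM in potent, 5.48 in the control and is listed at 0 in arf7, where the authors' deposited table has it as lower (q = 0.00145). ENODL15 (AT4G31840), an early nodulin-like protein of the plasma membrane, had 21.9 FPKM in potent, 5.30 in the control and is listed at 0 in arf7, and it too is listed as lower there (q = 0.00145). ENODL13 (AT5G25090) had 5.66 FPKM in potent, 1.52 in the control and is listed at 0 in arf7. ENODL14 (AT2G25060) had 5.57, 3.99 and 0.0884 FPKM in potent, control and arf7, and misses the set through its small difference in potent. Another order was seen in a more abundant gene of that family, as ENODL17 (AT5G15350) reached 287 FPKM in the control, against 34.7 in potent and 108 in arf7; the authors' deposited table lists it as lower in both mutants. AT5G16250, also uncharacterised, had 23.7 FPKM in potent, 6.09 in the control and 0.200 in arf7, and AT3G02120, a hydroxyproline-rich glycoprotein, had 22.5, 3.31 and 0.416 FPKM in potent, control and arf7.

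Further proteins without a described role add to this group. AT2G18270 had 26.3 FPKM in potent, 2.51 in the control and 0.142 in arf7, and its 10.4-fold excess in potent was the largest of the coding members. AT3G62695 had 18.4, 7.09 and 0.300 FPKM in potent, control and arf7. AT2G42110 had 11.04 FPKM in potent and 1.62 in the control, AT3G12870 had 9.27 and 1.36 FPKM, and both are listed at 0 in arf7. AT3G12870 overlaps AT3G12860 on the opposite strand, which had 8.78, 1.65 and 2.21 FPKM in potent, control and arf7. Reads in that overlap cannot be assigned to one gene. The opposite-strand partners of AT2G18270 (TLP2) and AT3G62695 (ATL5) had other orders. AT4G31441 was the most abundant of the unknown proteins, with 110.6, 35.5 and 12.5 FPKM in potent, control and arf7. Its annotated transcript is 123 bases long, and few fragments give a high FPKM on so short a transcript. AT3G03130, a protein with a lisH-like domain, had 5.68 FPKM in potent, 0.897 in the control and is listed at 0 in arf7, and the authors' deposited table lists it as lower there (q = 0.00145).

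Regulators formed a small further group. AT1G28160, an ethylene response factor type transcription factor, had 45.6 FPKM in potent, 6.77 in the control and 0.894 in arf7, a 51.0-fold difference between the mutants. ZPR1 (AT2G45450), a little zipper protein that blocks class III homeodomain leucine zipper factors, had 70.2 FPKM in potent, 22.1 in the control and 5.00 in arf7. Its relatives did not share this, since ZPR3 (AT3G52770) had 0.340, 6.12 and 1.53 FPKM and ZPR4 (AT2G36307) had 29.04, 18.1 and 20.6 FPKM in potent, control and arf7. JAZ10 (AT5G13220), a repressor of jasmonate response, had 11.5 FPKM in potent, 1.39 in the control and is listed at 0 in arf7, where the authors' deposited table has it as lower (q = 0.00145). Of the 10 JAZ genes with values, 6 lay above the control in arf7, among them JAZ1 (AT1G19180) with 110.2 FPKM in potent, 29.9 in the control and 54.5 in arf7. GA20OX2 (AT5G51810), an enzyme of gibberellin synthesis, had 5.33 FPKM in potent, 2.32 in the control and is listed at 0 in arf7, and the other 4 genes of its family were below 1 FPKM in every genotype.

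Of the defence and transport genes, AT4G11190, a dirigent-like protein, had 164 FPKM in potent, 44.6 in the control and 13.5 in arf7. The authors' deposited table lists it as higher in potent with a log2 fold change of 1.88 (q = 0.00145). KTI1 (AT1G73260), a trypsin inhibitor, had 29.8, 12.1 and 1.82 FPKM in potent, control and arf7. AT1G79520, a cation efflux protein, was the most abundant coding member, with 844 FPKM in potent, 281 in the control and 109 in arf7. Its gene model overlaps 3 annotated small nucleolar RNAs on the same strand, and these are not analysed here. ACA10 (AT4G29900), a calcium pump, had 12.5, 5.65 and 2.54 FPKM in potent, control and arf7.

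Members with smaller differences include genes of DNA precursors, nuclear import and organelles. DUT1 (AT3G46940), a dUTP pyrophosphatase that keeps uracil out of DNA, had 124.9 FPKM in potent, 51.8 in the control and 29.1 in arf7, the smallest difference in arf7 of the set, -0.81 on the log2 scale. MOS6 (AT4G02150), an importin alpha, had 25.96, 12.8 and 5.45 FPKM in potent, control and arf7. MORF3 (AT3G06790), a factor of RNA editing in organelles, had 29.4, 15.0 and 7.92 FPKM. RIP5 (AT5G60210), a partner of ROP GTPases, had 8.77, 3.61 and 1.48 FPKM, and AT5G62550, described as microtubule-associated, had 13.7, 6.02 and 0.689 FPKM in potent, control and arf7. AT2G35605, with a SWIB/MDM2 domain, was more abundant, with 71.6, 37.1 and 19.1 FPKM, and AT5G23820, with a lipid recognition domain, had 44.3, 23.7 and 9.51 FPKM. AER (AT5G16970), a reductase of reactive alkenals, had 8.80, 2.58 and 0.996 FPKM. The MATE efflux protein AT1G66760 had 15.7, 7.79 and 2.03 FPKM, and AT3G07350, of the DUF506 family, had 19.5, 7.83 and 2.19 FPKM in potent, control and arf7. The 5 coding members not described elsewhere, AT1G15900, EDA6 (AT3G23440), AT5G11240, AT3G15080 and AT2G47935, had 6.22 to 12.7 FPKM in potent, 2.55 to 6.42 in the control and 0.916 to 3.04 in arf7.

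The members nearest the thresholds show how the set was bounded. AT5G61880, a homologue of the mitochondrial import motor subunit Pam16, had 16.1, 8.51 and 3.603 FPKM and was nearest to the threshold in potent, at 0.85 on the log2 scale. Just outside lay AT4G14680 (APS3), with 6.73, 3.51 and 0.815 FPKM and 0.78 in potent, and AT1G65970 with 21.7, 1.74 and 0.572 FPKM and -0.80 in arf7, which passes the threshold of -0.8 only when rounded. AT1G07287, with 5.07 FPKM in potent, was nearest to the level of 5, and AT1G74390, with 4.90, was just below it.

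Small RNAs made up much of the noncoding remainder and included the 3 largest differences of the set. Small nucleolar RNAs (snoRNAs) guide the methylation or pseudouridylation of ribosomal RNA; those of the C/D type carry a C box near the 5′ end and a D box near the 3′ end. They made up 7 of the 58 (12.1%) and 1.24% of the 13513 loci, or 4.17% of the 168 snoRNAs at this level. The 3 with the largest differences and the most abundant are shown 5′ to 3′ as DNA from RefSeq's TAIR10.1, with TGATGA of the C box within the first 25 bases and CTGA of the D box within the last 15 bases in capitals.
AT4G26365, chr4:13332834-13332911 (-): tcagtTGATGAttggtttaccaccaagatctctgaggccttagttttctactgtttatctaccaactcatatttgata
AT5G66562, chr5:26567370-26567453 (+): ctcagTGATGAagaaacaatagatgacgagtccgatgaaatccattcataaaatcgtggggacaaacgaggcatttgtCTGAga
AT3G27865, chr3:10328510-10328601 (+): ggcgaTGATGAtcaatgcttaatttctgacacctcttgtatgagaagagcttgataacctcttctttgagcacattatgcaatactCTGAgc
AT3G08165, chr3:18893230-18893310 (-): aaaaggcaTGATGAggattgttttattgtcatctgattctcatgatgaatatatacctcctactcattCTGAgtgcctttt

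TGATGA was found in 6 of the 7 and CTGA in 6 of the 7 on the RNA's strand, against 48.0% and 67.6% of the 256 annotated snoRNAs under 150 bases. The 256 were taken at any level and include snoRNAs described as H/ACA-box rather than C/D, such as SNOR111. These shares are therefore not a like comparison. AT4G26365, which lacks CTGA in its last 15 bases, had 271 FPKM in potent, 25.5 in the control and is listed at 0 in arf7. AT5G66562 had 100.6 FPKM in potent, 21.0 in the control and is listed at 0 in arf7, and AT3G27865 had 55.01 FPKM in potent and 10.7 in the control and is also listed at 0 in arf7. AT3G08165 (AtsnoR7-2) had 893 FPKM in potent, 376 in the control and 208 in arf7. The remaining 3 were AT4G04465 (AtsnoR6-3) with 51.0, 4.49 and 1.75 FPKM, AT1G19376 with 131, 67.4 and 15.9 FPKM, and AT2G08755 (At39BYb) with 121, 59.8 and 18.3 FPKM in potent, control and arf7.

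Other snoRNAs of the same clusters were mixed. The 7 members have 12 annotated snoRNA neighbours with values, on the same strand and 32 to 379 bases away, of which 6 had their highest value in potent, 4 in the control and 2 in arf7. In potent 8 of the 12 exceeded the control, while in arf7 4 were under the control, 7 exceeded it and 1 is listed at 0 in both; none is among the 58. Near AT4G26365, AT4G07625 had 20.5 FPKM in potent, 59.2 in the control and is listed at 0 in arf7, and so shared the low arf7 value but not the high potent one. Near AT5G66562, AT5G66564 is listed at 0 in potent, against 30.7 FPKM in the control and 14.5 in arf7, whereas AT5G66567 had 40.4 FPKM in potent and is listed at 0 in the control and in arf7. AT3G50825, 93 bases from AT3G08165, had 356 FPKM in potent, 71.5 in the control and 106.7 in arf7. Short transcripts varied widely in every direction: of the 317 loci under 200 bases with at least 5 FPKM, 69.7% were past 0.8 on the log2 scale in potent and 65.9% in arf7, in either direction, against 47.4% and 39.4% of the 13104 longer loci, and 36.9% were at 0 in some genotype, against 1.30%. Of these 317, 10 belong to the 58 and 8 to the 28 loci with the opposite pattern. Few fragments give a high FPKM on so short a transcript, and their part in the result was not tested.

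The other noncoding members were a tRNA, a microRNA precursor, 2 long noncoding RNAs and a chloroplast locus without an entry in the reference. The cysteine tRNA AT3G52345 had 101 FPKM in potent, 48.3 in the control and 2.51 in arf7, and ATCG00320 had 211, 100.4 and 9.74 FPKM. The long noncoding RNA AT3G29644 had 6.92, 2.61 and 0.870 FPKM in potent, control and arf7, and AT1G07287, the other, had 5.07 and 2.04 FPKM in potent and control and is listed at 0 in arf7. MIR171a (AT3G51375), the precursor of a microRNA that targets GRAS factors of the SCL family, had 8.14 FPKM in potent, 3.79 in the control and 0.956 in arf7. Its mature 3′ arm is shown as DNA, with the seed, bases 2 to 8, in capitals.
ath-miR171a-3p, chr3:19073521-19073541 (+): tGATTGAGccgcgccaatatc
The precursors MIR171b (AT1G11735) and MIR171c (AT1G62035) had other orders. MIR171b reached 62.1 FPKM in arf7, against 6.58 in the control and a listed 0 in potent. MIR171c is listed at 0 in the control alone, with 24.0 FPKM in potent and 25.5 in arf7.

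Features that the choice did not use were compared as shares. Protein-coding loci were 79.3% of the 58 and 94.7% of the 13513. By words in the product descriptions, 6 of the 46 coding members (13.0%) fell in the class of cell division, DNA and chromatin, against 3.27% of 12795 coding loci, and none of the 16 coding loci with the opposite pattern did. No coding member fell in the classes of RNA processing and translation (7.27% of 12795) or of the cell wall (3.49%), and 3 (6.52%) were metabolic enzymes, against 19.5%. These classes rest on words alone and miss some members. MORF3, a factor of RNA editing, and DUT1, a dUTP pyrophosphatase, fell in no class. The class of proteins described as unknown or uncharacterised held 11 of the 46 (23.9%), against 11.7%, and 9 of the 16 with the opposite pattern; the 11 include AT3G14190, which the product description leaves unnamed although a synonym in the reference is PATRONUS 1. Transporters numbered 4 (8.70%, against 4.96%). The spliced transcripts of coding members had a median of 1178 bases, against 1650, and 13 of the 46 (28.3%) had a single exon, against 15.3%. Chromosome 3 held 18 of the 58 (31.0%) and 19.9% of the 13513 loci, and the closest pair of members, AT5G17160 and AT5G16970, lay 61559 bases apart. Annotated genes overlapped 20 of the 58, in 18 cases on the opposite strand, and the cited library protocol does not mark strand, so reads in such overlaps cannot be assigned to one gene. Among the mitotic genes, the partner of CDKB2;1, AT1G76530, is listed at 0 in every genotype, and that of MAD2 is not analysed here. The partner of UBC20, THFS, had 35.04 FPKM in potent, 24.7 in the control and 36.3 in arf7, and that of AUR1, PFK6, had 1.26, 5.09 and 3.92 FPKM. The partner of SYP111, NPQ1, had 4.05, 3.16 and 6.21 FPKM and that of 3xHMG-box2, WRKY53, 12.6, 8.61 and 20.17 FPKM in potent, control and arf7.

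Markers of cell types and the altered genes were read beside these results. Of 4 root meristem markers, PLT1, PLT2 and RGF1 are listed at 0 in all genotypes, and the quiescent centre gene WOX5 (AT3G11260) had 8.18 FPKM in potent, 0.130 in the control and 0.767 in arf7. Of 4 root cap markers 1 was above 0, at 0.139 FPKM in the control. Summed over their lists, 8 root hair markers reached 2892 FPKM in potent, 520 in the control and 1601 in arf7, 8 endodermis markers 8641, 3004 and 7703, and 8 xylem markers 1479, 949 and 1646. The 3 phloem markers summed to 22.8, 14.5 and 33.3 FPKM, the 3 pericycle and stele markers to 70.4, 23.1 and 71.2, and the 5 green shoot markers to 188, 34.5 and 83.7, so that each of these sums was higher in both mutants than in the control. Abundant genes weigh most in such sums, and single markers differed. Only 6 of 8 root hair, 7 of 8 endodermis, 2 of 3 phloem and 2 of 3 pericycle and stele markers exceeded the control in potent. In arf7, 1 marker each of the root hair, endodermis, xylem and phloem lists was under the control. RHD6, of the root hair list, had 6.29, 32.2 and 10.9 FPKM in potent, control and arf7. None of these markers, nor of the 19 lateral root genes or the 29 auxin genes on the lists, is among the 58, and 1 of 13 stress genes is, JAZ10; with 0.429% of the 13513 loci in the set, nothing is read from counts of 0 or 1 in lists of this size. The lateral root list had medians of 0.67 in potent and 0.38 in arf7, the auxin list 0.56 and -0.06 and the stress list 2.31 and 1.31 on the log2 scale. The part of tissue composition in the result was not tested. ARF7 (AT5G20730) itself had 9.35 FPKM in potent, 12.0 in the control and 2.64 in arf7, and IAA18 (AT1G51950) had 21.8, 10.6 and 19.1 FPKM.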

How the data were processed

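Total RNA of 9 samples, 3 per genotype, was sequenced. Per the labels' protocols, libraries followed a cited protocol (full-length cDNA, no strand marking). Tools named in the submitters' processing notes are Cufflinks, Cuffdiff, TopHat, TopHat2, Bowtie and Bowtie2, with TAIR10 as the genome build; their versions and order, and the release of the annotation, are not given there. The authors combined the samples of each genotype into 1 value per locus, and their header gives no unit. The deposited values were taken as FPKM, since Cufflinks is named and they add up to between 850089 (arf7) and 905924 (control). Depth is unknown, so no interval was computed. The authors' deposited table of comparisons gives q-values between 0.00145 and 0.00945 and log2 fold changes, or text where a genotype is at 0.

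Loci were selected, and shares and medians computed, with Python 3.11.15 and pandas 2.3.3, with a pseudocount of 1, which understates changes of low genes. The selection code was checked on simulated data with planted changes well past the thresholds and little noise. That check does not bear on the reliability of the 58 loci. Per-sample values were not given, so no test, replicate omission or block was run, and a locus absent from the authors' table is not shown to be unchanged. The 58 loci, 12 gene lists of 135 entries, the 10 mitotic genes and 9 word classes were chosen with earlier results of these data known. Genes named are ARF7, IAA18, the 25 members with the largest difference between potent and arf7, the 10 highest, those in the authors' table or on a list, and those nearest the thresholds. Further members stand as examples of their roles, and relatives and neighbours were chosen after their values were seen. Names, lengths and sequences were taken by locus identifier from RefSeq's TAIR10.1, which matched 30847 loci and left 277 unmatched. Coordinates are those of TAIR10.1, and the deposited files hold none.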

Additional observations from a re-analysis of the deposited data

How the results depend on the processing

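The number of loci depends on the pseudocount and the threshold, since many members are low. With a pseudocount of 0.1 there were 89 loci, which include all 58, and with 5 there were 21. A threshold of 0.5 gave 161 loci and a threshold of 1 gave 30. The count stayed within 1.5 times of 58 under the other settings: 70 with a minimum of 1 or none, 41 with a minimum of 10, 58 after median-ratio scaling with the same 58 loci, 41 without loci at 0, 46 with protein-coding loci alone, and 47 without loci under 200 bases or without a reference entry, a setting added after seeing the data. The median log2 ratio of the members was 1.48 in potent and -2.39 in arf7 with a pseudocount of 0.1, 0.98 and -0.63 with a pseudocount of 5, and 1.34 in potent and -1.37 in arf7 after scaling. None of 232 ratios of single members recomputed with a pseudocount of 0.1 or after scaling changed sign. This says nothing about robustness, since a pseudocount cannot change the sign of a ratio. The scaling factors, from 1.003 in potent to 1.010 in the control, were too close together to do so. No paired analysis was possible because the deposited columns hold 1 value per genotype and carry no replicate numbers, and replicates could not be left out for the same reason. The unknown depth limits what can be said of the 28 loci below 5 FPKM in the control and of the 17 listed at 0 in arf7.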
